A study of Mus musculus with 4 samples.

Results

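The 10 genes described here set the gate through which a cell enters a new round of division, and they were chosen by name because cardiomyocytes of the newborn mouse are leaving the cell cycle at this age. They are Meis1, Meis2, Cdkn1a, Cdkn1b, Rb1, Ccnd1, Ccnd2, Ccnd3, Cdk4 and Cdk6, and all 10 were among the 22574 genes of the deposited matrix. Unique molecular identifiers (UMIs, counts of captured RNA molecules) were added up within each library and population, the level is given as UMIs per 1000000 UMIs of that sum (CPM), and the cycling population CM2 was set against the others and myocardial infarction (MI) against Sham.

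Single nuclei came from hearts of neonatal C57BL/6-background mice with loxP sites in both copies of Nrf1 (Nrf1fl/fl, here WT) or with the same alleles plus a Cre recombinase under the promoter of alpha myosin heavy chain, a cardiomyocyte gene (Nrf1fl/fl:aMHC-Cre, here KO). The strain field of the labels counts upward from C57BL/6 over the samples. At postnatal day 3 the pups had their left anterior descending artery tied off (MI) or the same opening of the chest without ligation (Sham), and hearts were taken the day after. Each of the 4 libraries, WT-Sham, WT-MI, KO-Sham and KO-MI, was 1 pool of tissue from 4 to 6 hearts below the ligation plane, so there is no replicate of any condition, no test was made, and intervals cover counting error only. The KO removes the gene in cardiomyocytes from the start of Cre activity, and a pool can hold hearts that differ.

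Cell division in most cells starts when a D-type cyclin (Ccnd1, Ccnd2 or Ccnd3) binds the kinase Cdk4 or Cdk6. The complex phosphorylates the retinoblastoma protein (Rb1), which then lets go of the E2F factors that switch on the genes of DNA replication. Cdkn1a (p21) and Cdkn1b (p27) are proteins that hold cyclin-dependent kinases back, and Meis1 and Meis2 are homeodomain transcription factors, of which Meis1 is known to promote the exit of mouse cardiomyocytes from the cycle after birth and to activate CDK inhibitors.

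The matrix held 8585 nuclei, all deposited as cardiomyocytes, with 4984625 to 9106522 UMIs per library, and 9 cell barcodes occurred in more than 1 library. CM1 was the largest population, with 1098 to 2619 nuclei per library, and CM2 the smallest, with 27 in WT-Sham, 57 in WT-MI, 124 in KO-Sham and 67 in KO-MI. CM4 had 118 to 351 nuclei and CM5 89 to 355. All 10 cardiomyocyte markers were detected in every population of every library. The 12 cycling markers summed to 1475 to 1850 CPM in CM2, to 248 to 402 CPM in CM4 and to 96.8 to 158 CPM in CM1 and CM5. The label of CM2 as cycling thus held in each library, with CM4 next. The numbering of populations is that of the deposited final label. Of the CM2 nuclei, 197 of 275 carried the name CM5 in a second deposited label, which had been transferred from an earlier reference. The deleted gene, named Nfe2l1 in the matrix, stood in CM1 at 61.4 CPM (54.1 to 69.4) in WT-Sham and 53.3 (48.2 to 58.9) in KO-Sham. These intervals overlap. It stood at 44.1 (38.9 to 49.9) in WT-MI and 57.7 (51.4 to 64.5) in KO-MI. After MI it was thus higher in the library labelled KO than in the library labelled WT. Under neither surgery could the genotype labels be checked by it. The counts do not show which exons the UMIs came from. A lower level in a sum over nuclei can come from fewer nuclei with the RNA or from less RNA in each, and these cannot be told apart.

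The stretch of DNA before a gene's start is where much of its control is read. In CM1 the inhibitors Cdkn1a and Cdkn1b differed between surgeries in opposite directions, and Cdk4, a kinase they bind, differed between genotype labels under Sham. The following windows are shown for that reason. Each is the 250 bases before a start listed by RefSeq (GRCm38.p6), 5′ to 3′ along the gene. Capitals mark matches to any of 9 motifs searched on both strands, which were E2F (TTTNNCGC), the CCAAT box, spelled as it is named, the CHR element of cell cycle genes (TTTGAA), the TATA box of the core promoter (TATAAA), the GC box read by Sp1 (GGGCGG), the antioxidant response element (TGACNNNGC), the core letters bound by Meis proteins (TGACAG), the E-box bound by Myc (CACGTG) and the p53 half-site. The p53 half-site was added after the sequences had been read, and no 2 matches overlapped in these windows.
Cdkn1a, chr17:29090729-29090978, plus strand: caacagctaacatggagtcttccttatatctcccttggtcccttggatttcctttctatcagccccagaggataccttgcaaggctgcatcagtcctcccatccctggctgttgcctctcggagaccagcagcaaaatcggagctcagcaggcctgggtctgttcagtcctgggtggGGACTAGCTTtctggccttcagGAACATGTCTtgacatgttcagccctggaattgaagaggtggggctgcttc
Cdkn1a, chr17:29093519-29093768, plus strand: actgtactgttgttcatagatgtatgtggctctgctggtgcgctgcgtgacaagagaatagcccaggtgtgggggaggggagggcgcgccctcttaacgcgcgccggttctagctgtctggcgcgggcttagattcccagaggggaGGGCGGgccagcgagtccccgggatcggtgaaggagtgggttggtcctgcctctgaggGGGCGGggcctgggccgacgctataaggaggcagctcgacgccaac
Cdk4, chr10:127063285-127063534, plus strand: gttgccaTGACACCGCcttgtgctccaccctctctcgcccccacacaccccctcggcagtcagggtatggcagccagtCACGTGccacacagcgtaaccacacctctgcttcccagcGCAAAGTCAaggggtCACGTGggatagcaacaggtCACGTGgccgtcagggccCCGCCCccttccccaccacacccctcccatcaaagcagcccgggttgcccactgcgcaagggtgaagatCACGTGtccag
Cdkn1b, chr6:134920151-134920400, plus strand: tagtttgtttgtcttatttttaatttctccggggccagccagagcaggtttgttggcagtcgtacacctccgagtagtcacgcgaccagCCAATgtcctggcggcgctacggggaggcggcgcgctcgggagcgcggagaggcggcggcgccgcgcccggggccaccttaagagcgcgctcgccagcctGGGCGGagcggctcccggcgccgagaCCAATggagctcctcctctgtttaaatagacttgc

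RefSeq windows were found for 7 of the 10 genes, 9 windows in all, and Rb1, Ccnd1 and Ccnd2 had no entry in the table. The upstream window of Cdkn1a held 2 matches to the p53 half-site, a motif present in 7.13% of 32851 promoter windows of this length and in none of the other 8 member windows. The downstream window of Cdkn1a held no such match and 2 GC boxes, a motif of 32.7% of all windows. The Cdk4 window held 4 E-boxes, a motif of 6.02% of all windows, together with 2 antioxidant response elements, a motif of 10.2%. An E2F match occurred in 1 member window, that of Cdk6, against 4.28% of all windows. The Meis core (15.9%) and the CHR motif (16%) were matched in 0 of the 9. A match says only that the letters are there.

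On GRCm38, in the GENCODE M21 annotation, Cdkn1a lies at chr17:29090976-29100727 on the plus strand and Cdkn1b at chr6:134920401-134925513 on the plus strand. Meis1 (chr11:18879817-19018985), Meis2 (chr2:115863064-116065839) and Rb1 (chr14:73183673-73325822) lie on minus strands. Of the cyclins, Ccnd1 (chr7:144929931-144939925) and Ccnd2 (chr6:127125162-127152193) lie on minus strands and Ccnd3 (chr17:47505051-47599691) on the plus strand. Both kinases, Cdk4 (chr10:127063534-127067920) and Cdk6 (chr5:3341485-3531008), lie on plus strands. Introns were counted, so gene length bears on these values. Meis2, Cdk6, Rb1 and Meis1 are long, at 203, 190, 142 and 139 kb, Ccnd3 spans 94.6 kb and Ccnd2 27.0 kb. Ccnd1, Cdkn1a, Cdkn1b and Cdk4 are short, at 10.0, 9.75, 5.11 and 4.39 kb. Ccnd3 overlaps Bysl, Cdk4 overlaps Tspan31, Ccnd1 overlaps LTO1 and Rb1 overlaps Lpar6 and Rcbtb2, in each case on the opposite strand. The use of strand in the counting is not stated, so the values of these 4 genes are uncertain. Antisense or uncharacterised transcripts also overlap Meis1, Cdkn1a, Ccnd2 and Cdk6. On the same strand lie Gm17233 and Mir687 for Rb1, and 2610001A08Rik, 2900018N21Rik and Gm37818 for Meis1.

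**Figure D1:**
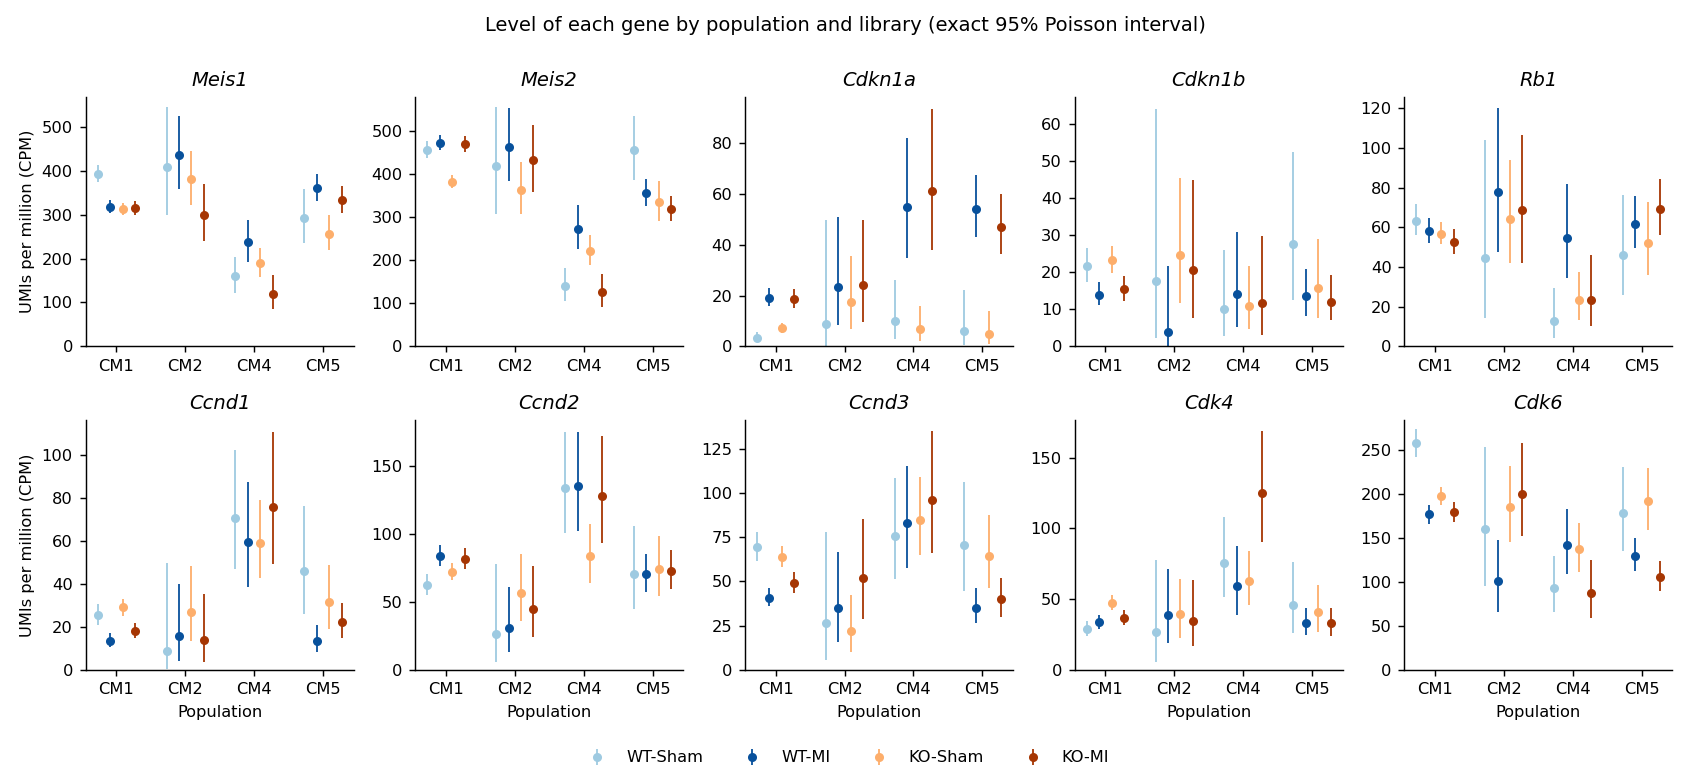
Level of each of the 10 genes (y axis, CPM, from 0, with a different range in each panel) in the populations CM1, CM2, CM4 and CM5 (x axis), 1 point per library with its exact 95% Poisson interval. Cdkn1a stood above 46 CPM in CM4 and CM5 of both MI libraries and under 11 in those of both Sham libraries, and the 3 cyclin genes were highest in CM4 in every library.

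Cdkn1a, which makes the inhibitor p21, was the gene of the 10 with the widest difference between surgeries. In CM1 its level was 3.37 CPM (1.84 to 5.66) in WT-Sham, 19.1 (15.7 to 23.0) in WT-MI, 7.09 (5.29 to 9.30) in KO-Sham and 18.6 (15.1 to 22.6) in KO-MI. These levels rested on 14, 111, 52 and 99 UMIs. The intervals of the MI libraries lay wholly above those of the Sham libraries under both genotype labels, while the 2 MI libraries overlapped each other. As a log2 ratio of MI over Sham in CM1 this was 2.50 (1.70 to 3.42) for WT and 1.39 (0.89 to 1.90) for KO.

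The same direction held outside CM1. In CM4 the level was 10.1 CPM in WT-Sham, 54.6 in WT-MI, 6.84 in KO-Sham and 61.1 in KO-MI. In CM5 it was 6.15, 54.1, 4.72 and 47.0 CPM in the same order. The Sham values of these populations rest on 2 to 5 UMIs each. The log2 ratio of MI over Sham was 2.43 (0.88 to 4.42) for WT and 3.16 (1.71 to 4.92) for KO in CM4, and 3.14 (1.24 to 6.21) and 3.32 (1.71 to 5.63) in CM5. CM2 held too few UMIs of Cdkn1a to tell the surgeries apart, with 1, 6, 7 and 7 in WT-Sham, WT-MI, KO-Sham and KO-MI.

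Within the MI libraries Cdkn1a was higher in CM5 than in CM1, with a log2 ratio of 1.50 (1.07 to 1.93) in WT-MI and 1.34 (0.87 to 1.80) in KO-MI. The corresponding ratios of CM4 over CM1, which share the CM1 sums, were 1.51 (0.80 to 2.17) and 1.72 (0.96 to 2.41). The populations had been defined on all genes of the same nuclei, so these differences are a description. CM5 made up 16.9% of nuclei in WT-MI and 19.2% in KO-MI, against 6.33% in WT-Sham and 7.03% in KO-Sham.

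Few nuclei carried a UMI of Cdkn1a. They numbered 21 of 1406 in WT-Sham, 190 of 2003 in WT-MI, 65 of 3328 in KO-Sham and 168 of 1848 in KO-MI, and the most in any 1 nucleus was 4, in WT-MI and in KO-MI. In CM1 the share was 1.28%, 7.28%, 1.95% and 7.03% in the same order. The median CM1 nucleus held 2632 UMIs in KO-Sham and 3749 to 4043.5 elsewhere, so each nucleus was also thinned to 1000 UMIs. The thinned CM1 shares were 0.365% (0.0994 to 0.931) in WT-Sham, 1.63% (1.03 to 2.43) in WT-MI, 0.687% (0.408 to 1.08) in KO-Sham and 2.60% (1.81 to 3.61) in KO-MI. Under each genotype label the MI share was above the Sham share after thinning too, with intervals that did not overlap. The files hold no other cell type in which a background share could be read.

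RNA of myeloid cells, which enter the infarct, was also higher in the MI libraries. The 11 myeloid markers summed in CM1 to 123 CPM in WT-Sham, 542 in WT-MI, 96.1 in KO-Sham and 269 in KO-MI, and all 11 were detected in CM1 of each library. In CM4 they summed to 207, 964, 127 and 509 CPM in the same order. The part of myeloid RNA in the difference of Cdkn1a was not tested. Each library and population was also cut at its own median share of UMIs from endothelial, fibroblast, pericyte (without Abcc9) and myeloid genes. In the nuclei at or below that median, the log2 ratio of Cdkn1a in CM1 was 2.70 (1.58 to 4.07) for WT and 1.48 (0.73 to 2.26) for KO. Because the cut was set within each library, it did not bring MI and Sham to the same share.

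Among all genes with at least 20 UMIs over both sums, 4.8% were 2-fold or more higher in MI than in Sham in CM1 under the WT label and 4.36% under the KO label. Of the 10 genes, Cdkn1a was the 1 past that fold under either label. The share 2-fold or more lower was 5.01% and 4.3% of all genes, and 0 of the 10 fell there. The median over the 10 was -0.21 for WT and -0.12 for KO, beside -0.07 and 0.03 over all genes tested.

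Cdkn1b, which makes p27, was lower in MI than in Sham in CM1. Its level was 21.7 CPM in WT-Sham (90 UMIs), 14.0 in WT-MI (81), 23.3 in KO-Sham (171) and 15.4 in KO-MI (82). The 2 Sham libraries lay above the 2 MI libraries, so the 2 inhibitors differed between surgeries in opposite directions. The log2 ratio of Cdkn1b in CM1 was -0.63 (-1.09 to -0.19) for WT and -0.60 (-1.0 to -0.21) for KO.

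The D-type cyclins differed in direction between surgeries. Ccnd1 in CM1 was at 25.3 CPM in WT-Sham, 13.6 in WT-MI, 29.0 in KO-Sham and 18.0 in KO-MI, a log2 ratio of MI over Sham of -0.89 (-1.33 to -0.46) for WT and -0.69 (-1.05 to -0.33) for KO. Ccnd3 was at 69.6, 40.9, 63.8 and 49.0 CPM in the same order, with ratios of -0.77 (-1.02 to -0.52) and -0.38 (-0.60 to -0.16). For both genes the 2 Sham libraries were the higher ones. Ccnd2 was at 62.1, 83.8, 72.0 and 81.7 CPM, with ratios of 0.43 (0.21 to 0.65) and 0.18 (0.00 to 0.37), so that its MI libraries were the higher ones. In CM5 the WT ratio was -1.77 (-2.81 to -0.70) for Ccnd1 and -1.01 (-1.74 to -0.23) for Ccnd3, and the KO ratio -0.51 (-1.37 to 0.38) and -0.69 (-1.30 to -0.08). Ccnd2 in CM5 had ratios of -0.01 (-0.67 to 0.71) and -0.03 (-0.54 to 0.50) in that order. In CM4 the WT and KO ratios were -0.25 (-1.09 to 0.58) and 0.36, each with an interval that includes 0, for Ccnd1, 0.01 (-0.55 to 0.58) and 0.62 (0.02 to 1.20) for Ccnd2, and 0.13 (-0.61 to 0.88) and 0.18 (-0.48 to 0.81) for Ccnd3. The lower levels of Ccnd1 and Ccnd3 after MI were thus not seen under both labels in CM4.

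Of the kinases that the cyclins bind, Cdk6 was lower in MI under both labels in CM1. Its level was 258 CPM in WT-Sham, 177 in WT-MI, 198 in KO-Sham and 179 in KO-MI, and WT-Sham stood apart above the other 3. The log2 ratio was -0.54 (-0.67 to -0.42) for WT and -0.14 (-0.26 to -0.02) for KO. Cdk4 was at 28.7, 33.6, 47.3 and 36.6 CPM in the same order, and here KO-Sham stood above the others. The ratio was 0.23 (-0.11 to 0.57) for WT and -0.37 (-0.63 to -0.11) for KO.

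Meis1 in CM1 was at 392 CPM in WT-Sham, 318 in WT-MI, 312 in KO-Sham and 315 in KO-MI. WT-Sham was again the library apart, and the log2 ratio of MI over Sham was -0.30 (-0.40 to -0.21) for WT and 0.01 (-0.08 to 0.10) for KO. Meis2 was at 456, 472, 382 and 469 CPM, with KO-Sham apart below the other 3, and ratios of 0.05 (-0.03 to 0.14) and 0.30 (0.22 to 0.38). Rb1, the target of the kinases, was at 63.4, 58.3, 56.7 and 52.6 CPM, with ratios of -0.12 (-0.36 to 0.12) and -0.11 (-0.33 to 0.11), whose intervals include 0.

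**Figure D2:**
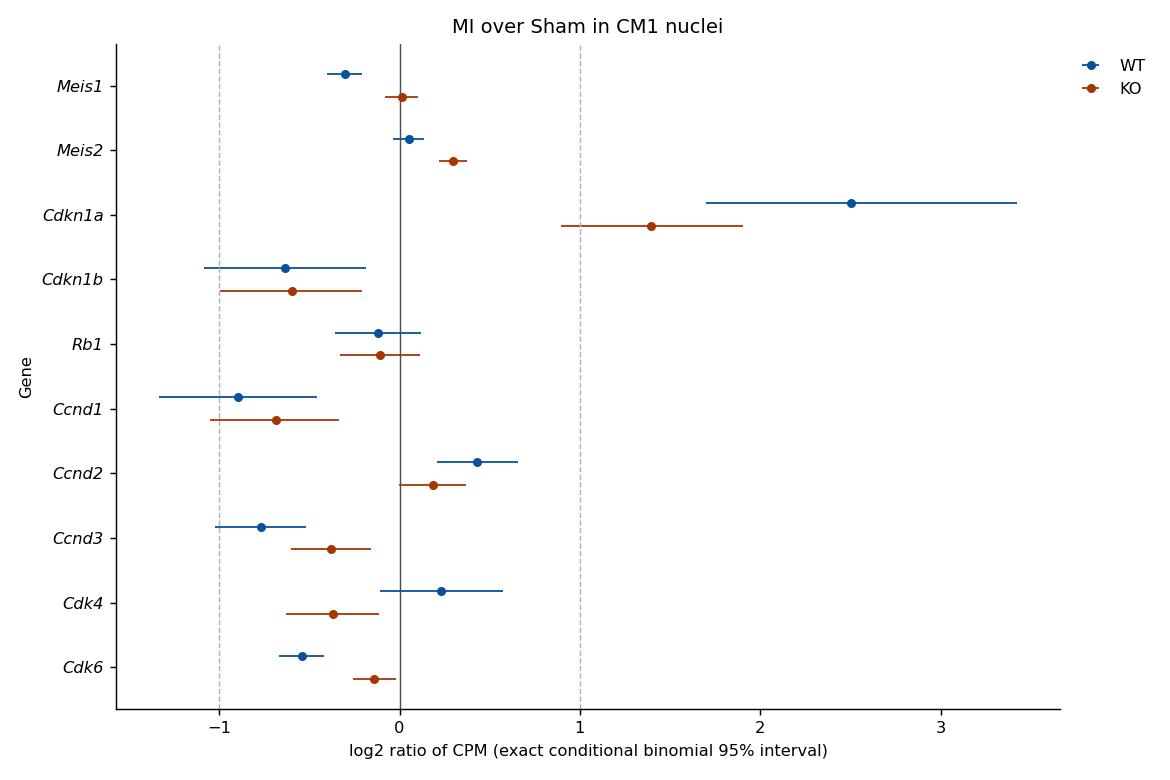
Log2 ratio of MI over Sham in CM1 (x axis) for each of the 10 genes (y axis), WT in blue and KO in brown, with the exact conditional binomial 95% interval and dashed lines at 2-fold. Cdkn1a lies at 2.50 and 1.39, and the other 9 genes lie between -0.89 and 0.43.

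The other genes of the pathway were counted over lists of 65 genes found in the matrix. A list named p53 and its targets, a group to which Cdkn1a belongs, held 17 genes. Of these, 15 had enough UMIs under the WT label and 16 under the KO label. Under each label 4 were 2-fold or more higher in MI and 1 lower. Whether p53 acts on each gene of the list in these nuclei was not tested. Eda2r, a receptor of the tumour necrosis factor family, was at 1.93 CPM in WT-Sham, 11.9 in WT-MI, 1.36 in KO-Sham and 7.33 in KO-MI, with log2 ratios of 2.63 (1.57 to 3.89) and 2.43 (1.40 to 3.59). Zmat3, an RNA-binding protein, was at 6.02, 20.9, 8.18 and 17.1 CPM, with ratios of 1.79 (1.16 to 2.48) and 1.06 (0.58 to 1.56). Gadd45g, a stress sensor, had ratios of 1.56 (1.11 to 2.04) and 2.08 (1.71 to 2.45), and Btg2, which restrains proliferation, of 1.01 (0.63 to 1.41) and 1.02 (0.69 to 1.35). Trp53inp1, of the same list, differed the other way, with -1.23 (-1.78 to -0.69) and -1.06 (-1.69 to -0.47). The median of the list was 0.29 for WT and 0.22 for KO, so most of its genes differed by less than those named. Of the other CDK inhibitors, 3 of 5 had enough UMIs, and their median was -0.54 and -0.74, below 0 for all 3 under both labels. The medians were -0.07 and -0.29 for 8 later cyclins and kinases, and 0.17 and 0.23 for the E2F and DP genes.

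In CM2, pooled over the 4 libraries, the 10 genes differed from the other populations by less than 2-fold, while genes that act after them differed by more. Over all genes with at least 20 UMIs, 12.6% were 2-fold or more higher in CM2 than in CM1, CM4 and CM5 together and 4.89% lower. A gene with 0 UMIs in CM2 was set to a floor of 3 UMIs, or 2.82 CPM over the 4 libraries. With few UMIs elsewhere it then counted as higher. This biases the higher share and the median of all genes upward, here and in the single libraries, by an amount not counted. Each of the 10 genes had at least 1 UMI in CM2 of each library. Of the 10 genes, 0 were past 2-fold in either direction over the 4 libraries pooled, and their median log2 ratio was -0.06 beside 0.05 over all genes. Single libraries, with few UMIs in CM2, gave wider values. In WT-Sham 1 of the 10 was 2-fold or more higher and 3 lower, where 25.3% of all genes were higher and 7.77% lower. The floor is 26.7 CPM in CM2 of WT-Sham, so genes not seen in CM2 bias that higher share upward. In WT-MI 0 were higher and 2 lower (16.6% and 7.5% of all genes), in KO-Sham 1 higher and 1 lower (13.1% and 6.19%), and in KO-MI 0 either way (14% and 7.16%). CM2 was defined on all genes of these nuclei, so the comparison is a description of the cluster. It rests on 1 to 10 UMIs in CM2 of each library for Cdkn1a and Cdkn1b, and on 438 over the 4 libraries for Meis2.

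Ccnd2 and Ccnd1 were lower in CM2 than elsewhere in each of the 4 libraries. Ccnd2 was at 26.7 CPM in CM2 of WT-Sham, 31.1 in WT-MI, 56.7 in KO-Sham and 44.8 in KO-MI, against 62.1 to 83.8 in CM1. The log2 ratio over the other populations was -0.81 (-1.26 to -0.40) pooled and ran from -1.44 in WT-MI to -0.37 in KO-Sham. Ccnd3 was at 26.7, 35.0, 22.2 and 51.7 CPM in CM2, in the order of WT-Sham, WT-MI, KO-Sham and KO-MI, with a pooled ratio of -0.73 (-1.25 to -0.25). It was below the other populations in 3 libraries and at 0.06 (-0.79 to 0.80) in KO-MI. Ccnd1 had a pooled ratio of -0.40 (-1.12 to 0.24) on 20 UMIs and ran from -1.77 in WT-Sham to -0.05 in WT-MI, with an interval that includes 0 in each library. CM2 of WT-Sham held 1 UMI of Ccnd1. In WT-MI it was at 15.5 CPM in CM2 on 4 UMIs, and lower only than in CM4 (59.3), with 13.6 in CM1 and 13.5 in CM5.

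For the inhibitors the counts in CM2 were low. Cdkn1a had a pooled log2 ratio of 0.22 (-0.49 to 0.85), made up of 1.11 (-4.26 to 3.76) in WT-Sham, 1.32 (-0.05 to 2.45) in KO-Sham, -0.25 (-1.72 to 0.89) in WT-MI and -0.13 (-1.46 to 0.95) in KO-MI. It was thus above the other populations in the Sham libraries and slightly below in the MI libraries, with intervals that include 0 in each. Against CM1 alone the pooled ratio was 0.69 (-0.02 to 1.33), and with nuclei thinned to 1000 UMIs it was 1.04 (-0.05 to 1.96) against the other populations together. Cdkn1b had a pooled ratio of 0.01 (-0.73 to 0.67), and none of these intervals shows that the levels were alike. Meis1 was at 409 CPM in CM2 of WT-Sham, 435 in WT-MI, 380 in KO-Sham and 300 in KO-MI, with a pooled ratio of 0.23 (0.08 to 0.38) and -0.04 (-0.37 to 0.27) in KO-MI. Meis2 was at 0.00 (-0.14 to 0.14), the narrowest of the 10 intervals, and Rb1 at 0.25 (-0.11 to 0.60). Cdk4 had -0.13 (-0.63 to 0.33) and Cdk6 -0.16 (-0.38 to 0.06), the latter with -0.72 (-1.34 to -0.16) in WT-MI and 0.32 (-0.09 to 0.70) in KO-MI. CM2 of WT-MI also held 18447 CPM of 5 red blood cell markers, against 1051 to 1892 in CM2 of the other libraries.

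**Figure D3:**
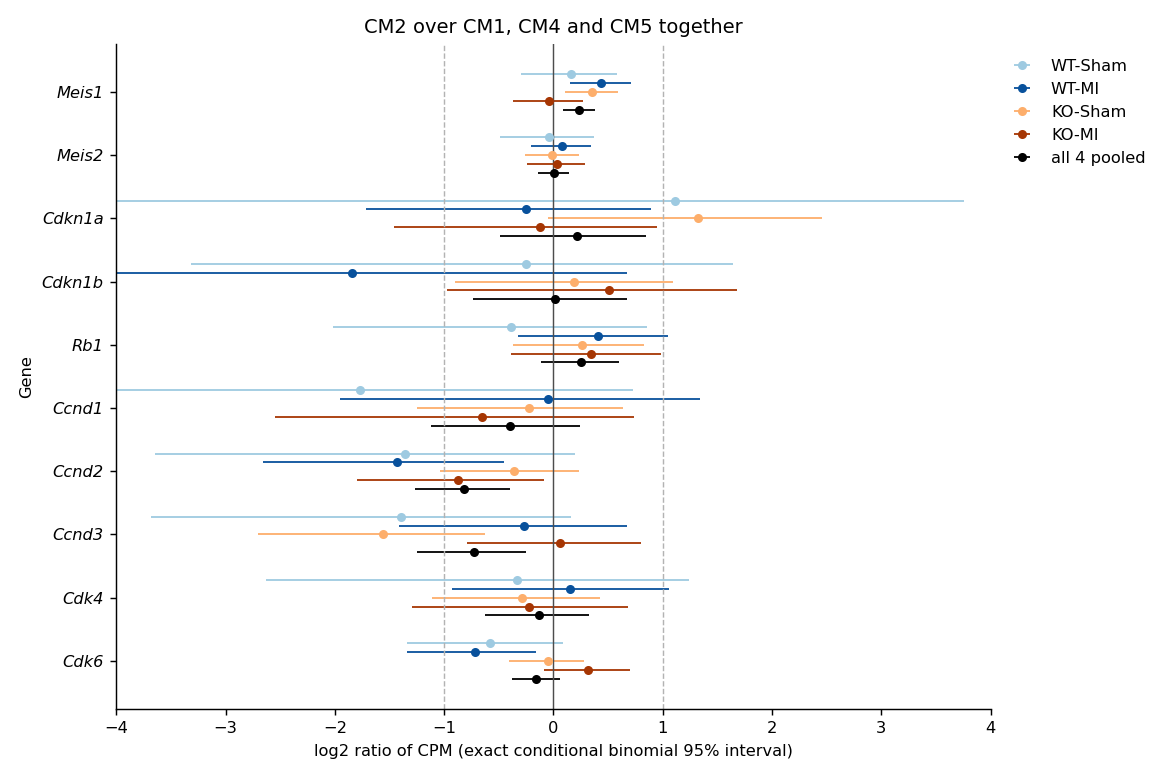
Log2 ratio of CM2 over CM1, CM4 and CM5 together (x axis) for each of the 10 genes (y axis), 1 coloured point per library and the pooled value in black, with exact conditional binomial 95% intervals cut at -4 and 4 by the axis and dashed lines at 2-fold. The pooled values run from -0.81 for Ccnd2 to 0.25 for Rb1, and Ccnd1 and Ccnd2 are below 0 in all 4 libraries.

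Further along the pathway all 8 later cyclins and kinases were 2-fold or more higher in CM2. Of these, Cdk1 and Ccnb1 are also among the cycling markers. So were 5 of 8 genes for the other pocket proteins and the MuvB complex, and 6 of 10 E2F and DP genes, with 1 of the 10 lower by that fold. Of all genes, 12.6% were higher and 4.89% lower, with the bias of the floor given above. Ccne2, the cyclin that takes over from the D-type cyclins, was at 62.9 CPM in CM2 and 6.90 elsewhere, a log2 ratio of 3.19 (2.77 to 3.60). Its partner Cdk2 had a ratio of 1.83 (1.31 to 2.32), E2f1 2.89 (2.41 to 3.34) and the E2F repressor E2f7 5.66 (5.20 to 6.14). Rbl1, the pocket protein p107 and a relative of Rb1, had 2.44 (2.10 to 2.78), and Skp2, which marks Cdkn1b protein for destruction, 3.28 (2.92 to 3.63). Lin54 (2.62) and Lin9 (2.37), of the MuvB complex, and Tfdp1 (1.19), a partner of the E2Fs, were higher too. Pbx3, a partner of Meis proteins, had 1.33 (1.19 to 1.48), with values of 1.11 to 1.74 over the 4 libraries. The other lists had medians of -0.02 for turnover and activation, -0.20 for p53 and its targets and 0.41 for Meis partners.

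CM4 was compared with CM1 after the levels had been seen. Pooled, 9 of 12 cycling markers were 2-fold or more higher in CM4 than in CM1, as were 14.5% of all genes. Pooled over the libraries, 7 of the 10 genes were further from CM1 in CM4 than in CM2 or CM5. The exceptions were Cdkn1a, further in CM5 (a pooled log2 ratio of 1.69), and Ccnd2 (-0.78) and Ccnd3 (-0.72), further in CM2. Pooling mixes libraries with different shares of CM5, and within the MI libraries Cdkn1a was not further in CM5 than in CM4. It was at 54.6 CPM in CM4 and 54.1 in CM5 of WT-MI, and at 61.1 and 47.0 in KO-MI. Ccnd1 was at 70.8 CPM in CM4 of WT-Sham, 59.3 in WT-MI, 58.9 in KO-Sham and 75.7 in KO-MI, all above the 13.6 to 29.0 of CM1. Over the libraries, the 652 CM4 nuclei also named CM4 in the second deposited label held Ccnd1 at 74.9 CPM. The 154 named CM1 there held it at 14.9 CPM (4.82 to 34.7) on 5 UMIs. The 26 named CM2 held 8 UMIs (138 CPM) and the 21 named CM3 held 0. Ccnd2 was at 134, 135, 83.5 and 128 CPM, and Ccnd3 at 75.9, 83.1, 84.9 and 96.0 CPM, in the same order. Cdk4 was at 75.9, 59.3, 63.0 and 125 CPM. The log2 ratio of CM4 over CM1, pooled, was 1.56 (1.27 to 1.85) for Ccnd1, 0.59 (0.38 to 0.80) for Ccnd2, 0.61 (0.36 to 0.85) for Ccnd3 and 1.01 (0.74 to 1.26) for Cdk4. Leaving out KO-Sham, which had the smallest ratio of Ccnd1, Ccnd2 and Cdk4, gave 1.89 for Ccnd1 and 1.34 for Cdk4.

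The long genes lay on the other side. Meis1 was at 159, 237, 189 and 119 CPM in CM4 of WT-Sham, WT-MI, KO-Sham and KO-MI, below the 312 to 392 of CM1, and Meis2 at 139, 273, 220 and 125 CPM, below 382 to 472. Rb1 was at 12.6, 54.6, 23.3 and 23.3 CPM. Pooled log2 ratios were -0.86 (-1.02 to -0.71) for Meis1, -1.15 (-1.30 to -1.0) for Meis2, -1.03 (-1.46 to -0.64) for Rb1 and -0.73 (-0.93 to -0.54) for Cdk6. Without WT-MI, the library with the least difference, Rb1 was at -1.48. Of all genes tested, 14.5% were 2-fold or more higher in CM4 and 12.3% lower, beside 3 and 2 of the 10.

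These ratios moved with the length of the gene. Over all genes the median log2 ratio of CM4 over CM1 was 0.28 for genes under 30 kb, -0.34 for those of 30 to 100 kb and -0.63 for those of 100 kb or more. CM4 nuclei were also shallower, with medians of 1715.5 to 2394 UMIs and 9.47 to 14.6% mitochondrial UMIs, against 2632 to 4043.5 UMIs and 5.05 to 8.78% in CM1. Relative to genes of their own length class, Cdk6 was at -0.10 (-0.30 to 0.09), Meis1 at -0.23 (-0.39 to -0.08), Rb1 at -0.40 (-0.83 to -0.01) and Meis2 at -0.52 (-0.67 to -0.37). Ccnd1 remained at 1.28 (0.99 to 1.57), Ccnd3 at 0.95 (0.70 to 1.18), Cdkn1a at 0.92 (0.47 to 1.35), Cdk4 at 0.73 (0.46 to 0.98) and Ccnd2 at 0.31 (0.10 to 0.51). Cdkn1b, a short gene, stood against its class at -0.97 (-1.66 to -0.35), on 22 UMIs in CM4. Markers of other cells were higher in CM4 as well, all 7 endothelial markers and 7 fibroblast markers among them. The endothelial list summed to 1550 to 1661 CPM in CM4 against 449 to 820 in CM1, and the fibroblast list to 1966 to 2460 against 895 to 1047. The 5 red blood cell markers summed to 3538 to 12805 CPM in CM4 against 1891 to 3829 in CM1. Pooled, 10 of 11 myeloid markers were higher in CM4. In the nuclei at or below the median share of such UMIs in their own library and population, the ratio was 1.32 (0.84 to 1.78) for Ccnd1 and 0.87 (0.46 to 1.26) for Cdk4. This cut did not use the red blood cell genes, and it did not bring CM4 and CM1 to the same share of the others.

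**Figure D4:**
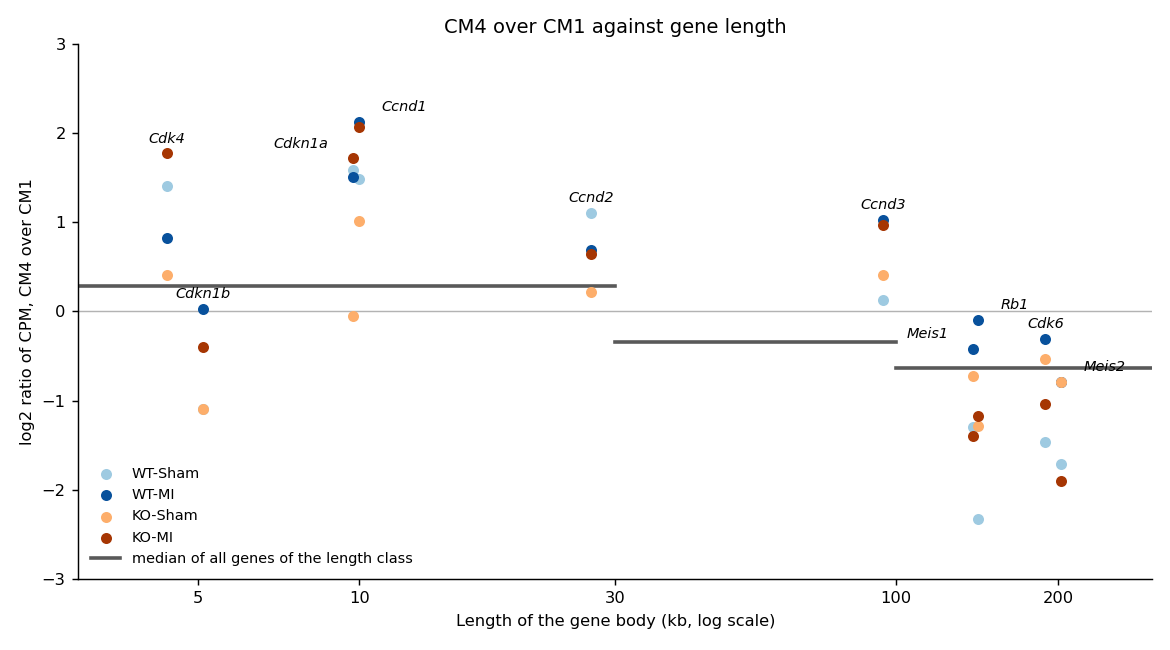
Log2 ratio of CM4 over CM1 (y axis) against the length of the gene body (x axis, kb, log scale) for the 10 genes, 1 point per library, with grey bars at the median of all genes of each length class over the pooled libraries (0.28, -0.34 and -0.63). The 4 genes of 100 kb or more lie below 0 in every library, and the 3 cyclin genes lie above 0 in every library.

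Within CM4 the surgery and genotype ratios of the long genes are given beside those of their length class. The log2 ratio of MI over Sham for WT was 0.58 (0.11 to 1.05) for Meis1, 0.97 (0.50 to 1.46) for Meis2 and 2.11 (0.68 to 3.86) for Rb1, where genes of 100 kb or more had a median of 0.49. For KO the same ratio was -0.66 (-1.20 to -0.15) for Meis1 and -0.82 (-1.34 to -0.32) for Meis2, where that class had a median of -0.23. Rb1 was at 0.00 (-1.42 to 1.29) for KO. Cdk6 had a WT ratio of 0.61 (-0.01 to 1.24) and a KO ratio of -0.65 (-1.29 to -0.05). For the short gene Cdk4 the WT ratio was -0.35 (-1.18 to 0.46) and the KO ratio 0.99 (0.36 to 1.62), where genes under 30 kb had medians of -0.15 and 0.13. KO-MI over WT-MI in CM4, which shares these libraries, was -0.99 (-1.55 to -0.45) for Meis1, -1.13 (-1.67 to -0.61) for Meis2, -1.23 (-2.60 to -0.02) for Rb1 and 1.08 (0.33 to 1.85) for Cdk4. The median was -0.34 for the long class and 0.19 for the short class. Of all genes tested there, 2.99% were 2-fold or more higher and 6.56% lower.

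Between genotype labels the 10 genes differed less in CM1. Under Sham, KO over WT, Cdk4 had a log2 ratio of 0.72 (0.42 to 1.04), and Cdkn1a 1.07 (0.20 to 2.04) on 52 and 14 UMIs, the 1 value past 2-fold, where 1.53% of all genes were higher by that fold and 1.42% lower. Cdk6 was at -0.38 (-0.50 to -0.27), Meis1 at -0.33 (-0.42 to -0.24) and Meis2 at -0.25 (-0.34 to -0.17). The median over all genes in this comparison was -0.11, and -0.23 for genes of 100 kb or more, and relative to that class Cdk6 was at -0.15 (-0.26 to -0.03), Meis1 at -0.09 (-0.19 to 0.00) and Meis2 at -0.02 (-0.11 to 0.06). Endothelial markers summed to 820 CPM in CM1 of KO-Sham and 449 in WT-Sham, and their part in the ratio of Cdk4 was not tested. In the nuclei at or below their own library's median share of UMIs of other cells, Cdk4 was at 0.81 (0.38 to 1.25). Here too the cut did not bring the libraries to the same share. Under MI the 10 ratios of KO over WT ran from -0.15 for Rb1 to 0.41 (-0.04 to 0.85) for Ccnd1, with Cdkn1a at -0.04 (-0.45 to 0.36), or 0.66 (-0.13 to 1.47) with nuclei thinned to 1000 UMIs, and 0 of the 10 were past 2-fold, where 0.999% of all genes were higher and 1.19% lower.

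Over the 16 sums of library and population, the genes whose log2 level most resembled a member's were read by Pearson's r, as a description over points that share libraries, depth and the length effect above. For Cdkn1a these were Rhod (0.94), Tpm2 (0.92) and Tgm2 (0.92). Ccnd1 was most like Ppp1ca (0.97), Ptms (0.96) and Fabp4 (0.96), the last of which is in the endothelial list above. Cdk4 was most like Rps10 (0.94) and Rpl28 (0.94), both of which encode ribosomal proteins. Meis1 was most like Rev3l (0.97), Meis2 like Dennd1b (0.97) and Ghr (0.97), and Rb1 like Hs2st1 (0.95). Ccnd2 was most like Cdc42 (0.95), Ccnd3 like Saraf (0.88), Cdk6 like 1700042O10Rik (0.94) and Cdkn1b like 2810403D21Rik (0.88). Meis1 and Meis2 resembled each other at 0.90.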

How the data were processed

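Nuclei of 4 libraries were profiled with a 10x Genomics 3′ kit, whose version differs between the labels and the methods. The authors deposited a matrix of UMI counts per gene and nucleus, not normalized, for 22574 genes and 8585 nuclei, and a line per nucleus with its library, its UMI count, the percent of its UMIs from mitochondrial genes, and its population. Per the methods, Cell Ranger, with no version given, had aligned the reads to an mm10/GRCm38 pre-mRNA reference that counts introns, Scrublet doublets had been taken out, Seurat 3 had been used for clustering, and the clusters kept were those of cardiomyocytes. Doublets were not called again. Nuclei held 537 to 2499 detected genes. Column sums matched the deposited UMI count for 100% of nuclei. Another 10 deposited columns with a value per nucleus were left unused.

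UMIs were summed per library and population and divided by the total to give CPM. Intervals are exact 95% intervals: Poisson for CPM, Clopper-Pearson for shares, conditional binomial for log2 ratios, and they cover counting error only. A sum at 0 was set to a floor of 3 UMIs. In a small sum such as CM2 this can score a gene that was not seen there as higher. A gene entered a comparison when both sums together held at least 20 UMIs, and 2-fold is the size given as a background share. With 1 library per group no p-value is given. The members, gene lists and comparisons were chosen with earlier results of these data known. All 10 members are named, together with the pathway genes past 2-fold with 1 sign under both genotype labels, or in all 4 libraries with 5 or more UMIs in CM2 of each. Likeness was computed on log2(CPM + 10) over genes with 300 or more UMIs, and the genes named had r of 0.8 or more. Alternatives were TMM scaling with edgeR 4.0.16, scaling to the median gene, totals without mitochondrial UMIs, minimums of 1 and 50 UMIs, thinning to 1000 UMIs, agreement of both population labels, the nuclei with fewer UMIs of other cells, gene length classes, other populations and leaving out libraries. Gene positions are from GENCODE M21, which held 98.0% of symbols. Python 3.11.15, numpy 2.4.6, scipy 1.17.1, pandas 2.3.3 and matplotlib 3.10.9 were used, and the ratio step was tested on simulated data.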

Additional observations from a re-analysis of the deposited data

Results flagged for a closer look

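For 6 values the 2 groups set side by side had opposite signs, with 1 library in each arm, and in each case the difference between the groups was not tested. MI over Sham in CM1 was -0.30 on the log2 scale for WT and 0.01 for KO for Meis1, and 0.23 and -0.37 for Cdk4. KO over WT in CM1 was 1.07 under Sham and -0.04 under MI for Cdkn1a, where thinning to 1000 UMIs gave 0.66 (-0.13 to 1.47) under MI and so the same sign. It was 0.21 and -0.04 for Ccnd2, -0.13 and 0.26 for Ccnd3, and -0.38 and 0.02 for Cdk6. Each pair shares no library but comes from the same 4 sums.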

How the results depend on the processing

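Of 689 values of single members under the alternatives, 589 stayed within the counting interval of the reported value. In all, 87 had the other sign, 25 of them in CM4 nuclei and 18 in CM5 nuclei, and for 11 of the 87 the interval excluded 0. Among members past 2-fold the sign changed for Cdkn1a in KO over WT under Sham, which was -0.56 on the log2 scale in CM4 (5 and 4 UMIs) against 1.07 in CM1. The median over the members moved in CM4, where MI over Sham was 0.58 for WT and 0.18 for KO, against -0.21 and -0.12 in CM1. Thinning to 1000 UMIs gave 1.96 for Cdkn1a in MI over Sham for KO, against 1.39, and -0.76 for Ccnd3, against -0.38. It also gave 1.04 (-0.05 to 1.96) for Cdkn1a in CM2 over the other populations, against 0.22, and 0.62 (0.03 to 1.22) for Cdk4 and 0.66 (-0.13 to 1.47) for Cdkn1a in KO over WT under MI, against 0.12 and -0.04. In the nuclei with fewer UMIs of other cells, Cdkn1b was at -1.10 for MI over Sham in WT, against -0.63. This setting was added after the data were seen, since nuclei with no UMI of the lists of other cells numbered 29 of 8585 and gave no usable ratio. TMM scaling moved the median of all genes for KO over WT under Sham from -0.11 to -0.01, Meis1 to -0.22 and Meis2 to -0.15. With no minimum of UMIs the median of all genes was 0.21 for CM2 over the other populations and 0.16 for CM4 over CM1, against 0.05 and -0.08. Without the minimum, more genes with 0 UMIs in the small sum enter. Set to the floor of 3 UMIs, they score as higher, which biases these 2 medians upward. No paired analysis was possible because the labels give 1 library per group and no shared replicate numbers. Depth limits CM2 most, with 112512 UMIs in WT-Sham, where 3 UMIs are 26.7 CPM.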
